A study of Homo sapiens with 2 samples.

Results

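The genes described here are 10 that set the activity of the cyclin-dependent kinases (CDKs) of the cell cycle, namely the kinase genes CDK1, CDK2, CDK4 and CDK6, the phosphatase genes CDC25A, CDC25B and CDC25C, the inhibitory kinase genes WEE1 and PKMYT1, and CKS1B. They were taken by name from the 38690 genes that GENCODE annotates as protein-coding or lncRNA on chromosomes 1 to 22 and X, and each name matched 1 gene. A promoter was the stretch of 1000 bp either side of any annotated transcription start site (TSS) of a gene, and a promoter peak was a peak with at least 1 base in it. The experiment was a ChIP-seq, in which DNA pulled down with a protein is sequenced, in A673 cells, an established Ewing sarcoma line that carries the EWSR1-FLI1 fusion. The series holds 1 ChIP library and 1 input library of the same line, with no treatment in either group and no replicate. The labels describe the antibody as one against MYBL2, whereas the study's methods name the phosphorylated, activated form of the protein. Only the peak list of the ChIP sample was used, in which the input enters through the background, so no test between conditions was possible.

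MYBL2, also known as B-Myb, is a transcription factor that works together with the MuvB complex and switches on genes needed for G2 and mitosis. CDKs drive the cell cycle once a cyclin is bound. WEE1 and PKMYT1 hold CDKs back by phosphorylating residues in the ATP-binding loop, and the CDC25 phosphatases take these phosphates off again. CKS1B encodes a small protein that docks on CDKs and helps them to find phosphorylated substrates. CDK2 also acts on MYBL2 itself, since phosphorylation by cyclin A and CDK2 activates the factor. Many late cell cycle promoters carry a cell cycle genes homology region (CHR), a short element that MuvB complexes contact, often close to CCAAT boxes bound by NF-Y, and many early ones carry E2F sites.

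All 10 genes had a promoter peak, where 59.4% of protein-coding genes did. Their best promoter peaks all reached a fold enrichment of at least 5, against 49.6% of protein-coding genes, and all 10 had a peak near the TSS of the canonical transcript, against 55.9%. The fold enrichment, as deposited, divides the fragments piled up over a summit by those expected from the local background, with 1 added to each. Its interval here is an exact Poisson interval of the pileup at 95% with the background held fixed. It covers counting error of the ChIP only, not that of the input. As promoter peaks are common in this list, the yes or no measure does not separate the 10 genes from one another, and the strength of the peaks was described instead.

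The 10 best promoter peaks fell into an upper set of 5 between 13.9 and 21.6 and a lower set of 5 between 7.19 and 8.71. The upper set held CDK1, CKS1B, CDC25C, PKMYT1 and WEE1, and the lower set CDK6, CDC25A, CDK2, CDK4 and CDC25B. The median over the 10 genes was 11.3, beside 8.67 over the 11941 protein-coding genes with a promoter peak, and 6 of the 10 lay above the latter. The intervals of every pair of neighbours in this order overlapped, including those of WEE1 (10.7 to 17.8) and CDK6 (6.75 to 11.1). The interval of CDK1 overlapped with those of 4 genes, the rest of the upper set, and with none of the lower set. With only the canonical TSS counted, the median fell to 8.62, beside 8.65 over protein-coding genes, because CDC25C moved to the lower set.

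**Figure D1:**
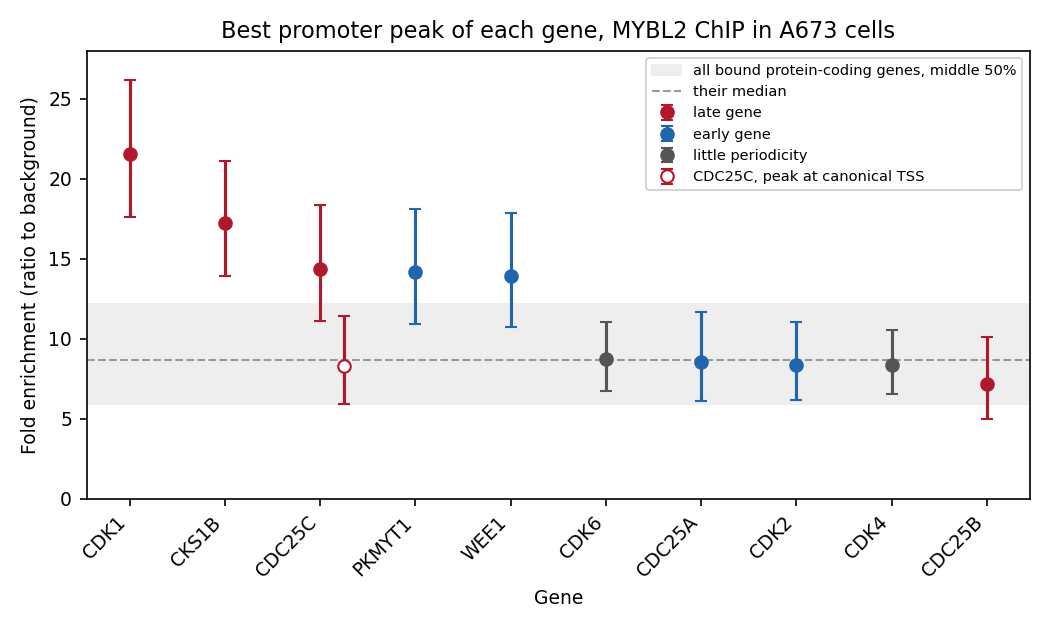
Fold enrichment (ratio of pileup to background, y axis) of the best promoter peak of each of the 10 genes (x axis), with bars for the 95% Poisson interval of 1 library; colours mark the timing of the mRNA from general knowledge, the grey band the middle 50% of bound protein-coding genes and the dashed line their median. CDK1 is highest at 21.6 and CDC25B lowest at 7.19; the open circle is the CDC25C peak at the canonical TSS, at 8.31.

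CDK1 encodes the kinase that brings cells into mitosis. The gene (ENSG00000170312, chromosome 10, 62538089 to 62554610, plus strand) had its best promoter peak at 62537831 to 62540692. The pileup was 101 fragments (interval 82.3 to 122.7) over a background of 3.73, a fold enrichment of 21.6 (interval 17.6 to 26.2). This was the strongest of the 10 genes, rank 510 among all 66954 peaks, and 95% of bound protein-coding genes had a weaker best promoter peak. The summit lay 8 bp upstream of the canonical TSS, almost on top of a CHR element whose centre was 2.5 bp from the summit. The other CHR match upstream of the TSS stood next to a reversed CCAAT box. These stretches of GRCh37, plus strand, are shown because they hold the CHR elements at and upstream of the summit, with CHR elements (TTTGAA or TTCGAA, either strand) and CCAAT boxes in capitals.

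CDK1, chr10:62538155-62538184: ctgATTGGCtgcTTTGAAagtctacgggct
CDK1, chr10:62538211-62538240: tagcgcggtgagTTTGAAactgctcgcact

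CDK2 encodes the kinase of S phase entry. The gene (ENSG00000123374, chromosome 12, 56360565 to 56366573, plus strand) had 1 promoter peak, at 56360292 to 56360985, and the summit fell 27 bp into the 5′ UTR as counted from the canonical TSS. The pileup was 47 fragments (interval 34.5 to 62.5) over a background of 4.74, a fold enrichment of 8.36 (interval 6.19 to 11.1). The peak was of middling strength, above 47.5% of bound protein-coding genes. It also touched the promoter of PMEL, a melanosome gene on the opposite strand, whose nearest TSS was 121 bp from the summit and whose canonical TSS was 815 bp away, and that of an unnamed lncRNA gene (ENSG00000258554). No other peak lay in the CDK2 gene.

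CDK4 encodes a kinase that acts with D-type cyclins in G1. The gene (ENSG00000135446, chromosome 12, 58141510 to 58149796, minus strand) had its best promoter peak at 58144678 to 58146265, with the summit in the 5′ UTR 57 bp downstream of the canonical TSS. Its pileup of 70 fragments (interval 54.6 to 88.4) was exceeded by CDK1 and CKS1B alone, but the background was the highest of the 10 genes, at 7.50. The fold enrichment was 8.36 (interval 6.54 to 10.5). A MYB site (CAACGG or TAACGG or CAACTG or TAACTG, either strand) was centred 43.5 bp downstream of the summit and is in capitals below (GRCh37, minus strand).

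CDK4, chr12:58145978-58146007: ccggggccccgaTAACGGgccgcccccaca

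CDK6 encodes the close relative of CDK4. The gene (ENSG00000105810, chromosome 7, 92234235 to 92465887, minus strand) was the longest of the 10, at 231653 bp. Its best promoter peak, at 92466408 to 92468929, had a pileup of 65 fragments (interval 50.2 to 82.8) over a background of 6.58 and a fold enrichment of 8.71 (interval 6.75 to 11.1). The peak ended 521 bp upstream of the canonical TSS and its summit lay 1179 bp upstream of it. The lncRNA gene CDK6-AS1, which starts on the opposite strand, had a TSS 1270 bp from the summit. A second promoter peak (92464713 to 92465146) lay in intron 1, with a fold enrichment of 4.87 (interval 3.16 to 7.20), so the TSS itself fell between peaks. With a promoter of 500 bp either side, or with the summit required in the window, this second peak was the best of CDK6. The 201 bases around the upstream summit were 30.8% G and C, where the median over best promoter peaks of protein-coding genes was 67.2%. None of the 7 motifs searched matched in them. The stretch (GRCh37, minus strand) is shown as the contrast to the other summits.

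CDK6, chr7:92466966-92467166: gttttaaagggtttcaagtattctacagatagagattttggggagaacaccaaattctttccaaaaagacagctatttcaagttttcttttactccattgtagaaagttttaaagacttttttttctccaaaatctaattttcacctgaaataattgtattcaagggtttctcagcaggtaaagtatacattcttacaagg

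CDC25A encodes the phosphatase known for its role at S phase entry. The gene (ENSG00000164045, chromosome 3, 48198636 to 48229907, minus strand) had 1 promoter peak, at 48229374 to 48230332, with the summit 10 bp upstream of the canonical TSS. The pileup was 37 fragments (interval 26.1 to 51.0) at the background floor of 3.45 fragments, a fold enrichment of 8.54 (interval 6.08 to 11.7). It was the only 1 of the 10 genes with an E2F site (TTTCCCGC or TTTGGCGC or TTTCGCGC or TTTGCCGC, either strand) within 100 bp of its best summit. That site was centred 30.5 bp upstream of the summit. A pair of reversed CCAAT boxes (ACCAAT or GCCAAT) stood further upstream, and all 3 matches are in capitals in the stretch just before the TSS (GRCh37, minus strand), shown for this arrangement.

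CDC25A, chr3:48229908-48230017: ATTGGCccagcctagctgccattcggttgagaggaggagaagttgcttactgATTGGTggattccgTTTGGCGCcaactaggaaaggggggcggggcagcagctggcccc

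CDC25B encodes the phosphatase that starts CDK1 activation in G2. The gene (ENSG00000101224, chromosome 20, 3767419 to 3786768, plus strand) had 5 promoter peaks, of which a pair lay at the canonical TSS. The stronger, at 3777162 to 3777496, had its summit in coding exon 1, 308 bp downstream, with 31 fragments (interval 21.1 to 44) and a fold enrichment of 7.19 (interval 4.96 to 10.1). The other, at 3776187 to 3777037, covered the TSS and had a fold enrichment of 6.96 (interval 4.77 to 9.85), so the intervals overlapped almost wholly. CDC25B had the lowest best promoter peak of the 10 genes, above 36.3% of bound protein-coding genes. A weaker promoter peak of CDC25B (fold enrichment 5.39) lay at an upstream TSS, 9581 bp from the canonical TSS, with its summit 11 bp from the TSS of CENPB, a centromere protein gene.

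CDC25C encodes the phosphatase that acts on CDK1 at mitotic entry. The gene (ENSG00000158402, chromosome 5, 137620958 to 137674044, minus strand) had its best promoter peak at 137673796 to 137674240, with 63 fragments (interval 48.4 to 80.6) and a fold enrichment of 14.4 (interval 11.1 to 18.3). The summit lay 6502 bp upstream of the canonical TSS and 19 bp from a distal TSS of CDC25C. It was also 40 bp from the canonical TSS of FAM53C on the opposite strand, and to which gene this peak belongs cannot be told apart here. The peak at the canonical TSS of CDC25C, at 137666723 to 137667983, was weaker, with a fold enrichment of 8.31 (interval 5.89 to 11.4), whose interval overlapped narrowly with that of the distal peak. This peak was shared with FAM53C as well, which had an alternative TSS 129 bp from the summit. The summit lay 2 bp upstream of the canonical TSS of CDC25C. A CHR element was centred 25.5 bp upstream of the summit with a reversed CCAAT box at 80.5 bp. Within 100 bp of the distal summit neither matched, and GC boxes (GGGCGG, either strand) were centred 39.5 and 95.5 bp upstream of it. The stretch around the CHR element and one upstream of the distal summit with the farther GC box are shown (GRCh37, minus strand), with these matches in capitals.

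CDC25C, canonical TSS, chr5:137667506-137667535: gctggcggaaggTTTGAAtggtcaacgcct
CDC25C, upstream of the distal summit, chr5:137674045-137674095: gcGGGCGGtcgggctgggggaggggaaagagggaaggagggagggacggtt

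WEE1 encodes the nuclear kinase that restrains CDK1 and CDK2. The gene (ENSG00000166483, chromosome 11, 9595217 to 9615004, plus strand) had its best promoter peak at 9594243 to 9598309, the widest of the 10 at 4067 bp. The summit lay in the 5′ UTR, 44 bp downstream of the canonical TSS, with 61 fragments (interval 46.7 to 78.4) and a fold enrichment of 13.9 (interval 10.7 to 17.8). Of bound protein-coding genes, 82.4% had a weaker best promoter peak. WEE1 was 1 of 2 genes with a MYB site within 100 bp of the summit, centred 61.5 bp upstream of it. A CCAAT box and an E-box (CACGTG) also matched within 100 bp of the summit.

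PKMYT1 encodes the membrane-bound kinase that restrains CDK1. The gene (ENSG00000127564, chromosome 16, 3018025 to 3030480, minus strand) had its best promoter peak at 3030020 to 3031383, with the summit 148 bp upstream of the canonical TSS, 62 fragments (interval 47.5 to 79.5) and a fold enrichment of 14.2 (interval 10.9 to 18.1). The value was almost that of WEE1, and the intervals of the 2 inhibitory kinase genes overlapped over nearly their whole length. The best PKMYT1 peak also touched the promoter of an unnamed lncRNA gene (ENSG00000274367), whose nearest TSS was 997 bp from the summit. A second strong peak, at 3018661 to 3024330, spanned 5670 bp of the downstream part of the gene with a fold enrichment of 10.6 (interval 7.86 to 14.1). Its summit lay in intron 8 and the peak covered the canonical TSS of PAQR4, a gene on the opposite strand, 3734 bp from the summit, and an alternative TSS of it at 2104 bp. Within 100 bp of the best summit only GC boxes matched, and an E2F site was centred 131.5 bp downstream of the summit.

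CKS1B (ENSG00000173207, chromosome 1, 154947129 to 154951727, plus strand) had 1 promoter peak, at 154945961 to 154948687. With 91 fragments (interval 73.3 to 111.7) over a background of 4.34 and a fold enrichment of 17.2 (interval 13.9 to 21.1), it was the second strongest of the 10 genes, above 90.5% of bound protein-coding genes. The summit lay 43 bp upstream of the canonical TSS. It was flanked by a CCAAT box centred 9.5 bp upstream and a CHR element centred 15.5 bp downstream, and the stretch around the CHR element is shown with that match in capitals (GRCh37, plus strand). The same peak touched an alternative TSS of SHC1, an adaptor protein gene on the opposite strand, 243 bp from the summit, while the canonical TSS of SHC1 was 3891 bp away.

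CKS1B, chr1:154947115-154947144: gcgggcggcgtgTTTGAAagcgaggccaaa

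The order by fold enrichment was not the order by pileup. By pileup, CDK4 (70 fragments) and CDK6 (65) stood above CDC25C (63), PKMYT1 (62) and WEE1 (61), whose fold enrichments were much higher. All 5 intervals overlapped, so these pileups did not differ beyond counting error. The backgrounds carry no interval here. They were 7.50 fragments at CDK4 and 6.58 at CDK6, above those at 98.7% and 97.3% of best promoter peaks of protein-coding genes. CDC25A, CDC25B, CDC25C, WEE1 and PKMYT1 lay at the floor of 3.45, as did 36.5% of all bound protein-coding genes. Why the background was high at CDK4 and CDK6 was not tested.

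**Figure D2:**
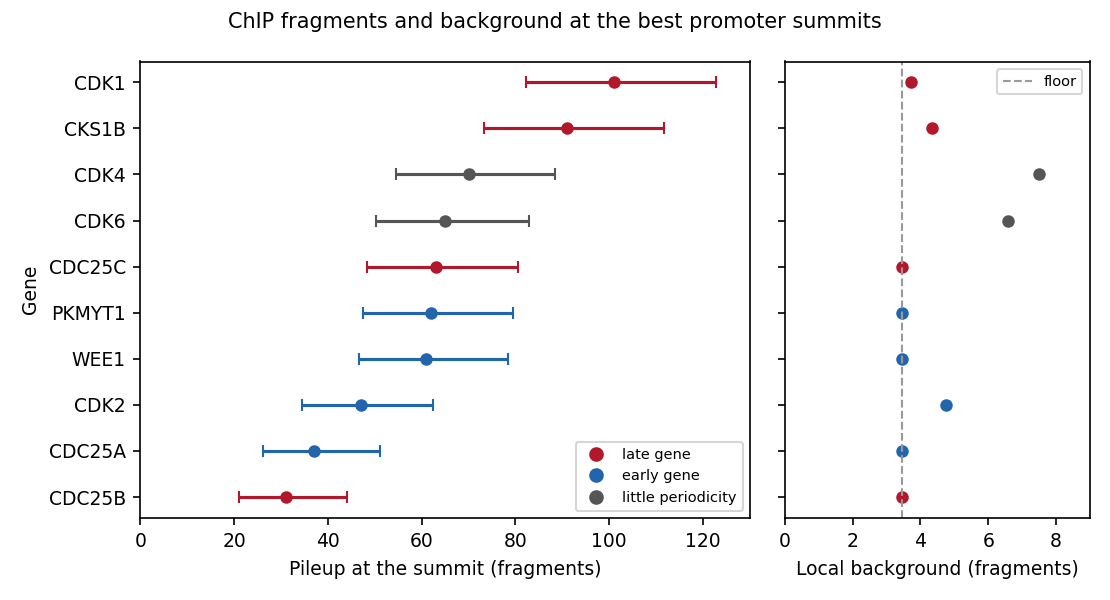
Pileup at the best promoter summit in fragments (left, bars are 95% Poisson intervals) and background in fragments (right) for the 10 genes, ordered by pileup. The dashed line is the floor of 3.45, the lowest background in the list, which is not a measure of the input at a gene. Only CDK1 and CKS1B exceed CDK4 and CDK6 by pileup, and these have the highest backgrounds, 7.50 and 6.58.

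Summits sat close to transcription starts. For 7 of the 10 genes the best summit was within 50 bp of an annotated TSS, a position shared by 40.7% of bound protein-coding genes, and the median distance was 23 bp beside 73 bp. The other 3 were PKMYT1 at 115 bp, CDC25B at 187 bp and CDK6 at 1179 bp. The nearest of all annotated TSSs was used, 5 to 20 per gene here beside a median of 5 over protein-coding genes. More TSSs leave more room for a short distance. From the canonical TSS, the summits of CDK4 (57 bp) and CDC25C (6502 bp) lay farther than 50 bp, and the CDC25C peak is shared with FAM53C. The regions of 250 bp either side of the canonical TSS were rich in CpG at all 10 genes. The ratio of observed to expected CpG ran from 0.665 at CDK2 to 1.15 at CKS1B, where the median was 0.846 over bound and 0.394 over unbound protein-coding genes.

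CHR elements lay within 100 bp of a summit at 3 of the 4 late genes, counting both TSSs of CDC25C. None of the other genes had such a match. At WEE1, an early gene, a CHR element began 69 bp upstream of the canonical TSS but was centred 110.5 bp from the summit. Within 100 bp of the best summit, a CHR element matched at 2 of 10 genes, CDK1 and CKS1B, and at 7.38% of the 10178 best promoter peaks of protein-coding genes. With the peak at the canonical TSS used for each gene, CDC25C was the third, at a peak that also touched the promoter of FAM53C. All 3 of these genes also had a CCAAT box in the same window, and this combination was at 1.48% of the best canonical TSS peaks of protein-coding genes. The CCAAT box alone matched at 4 best summits (CDK1, CDC25A, WEE1 and CKS1B; 12.8% of all). The MYB site matched at 2 (CDK4 and WEE1; 16.2% of all) and the E2F site at 1 (CDC25A; 3.44% of all). The E-box matched at WEE1 alone (6.44% of all), and the ETS core CCGGAAGT at none of the 10 (6.60% of all). The GC box was the common element, at 8 of 10 summits and 51.8% of all. No word of a motif is contained in a word of another, though neighbouring matches of a GC box and an E2F site can share bases. With 200 bp either side, the CHR element matched at 4 genes (CDK6 and WEE1 added; 13.9% of all) and the E2F site at 3 (CDK1 and PKMYT1 added; 6.48% of all).

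**Figure D3:**
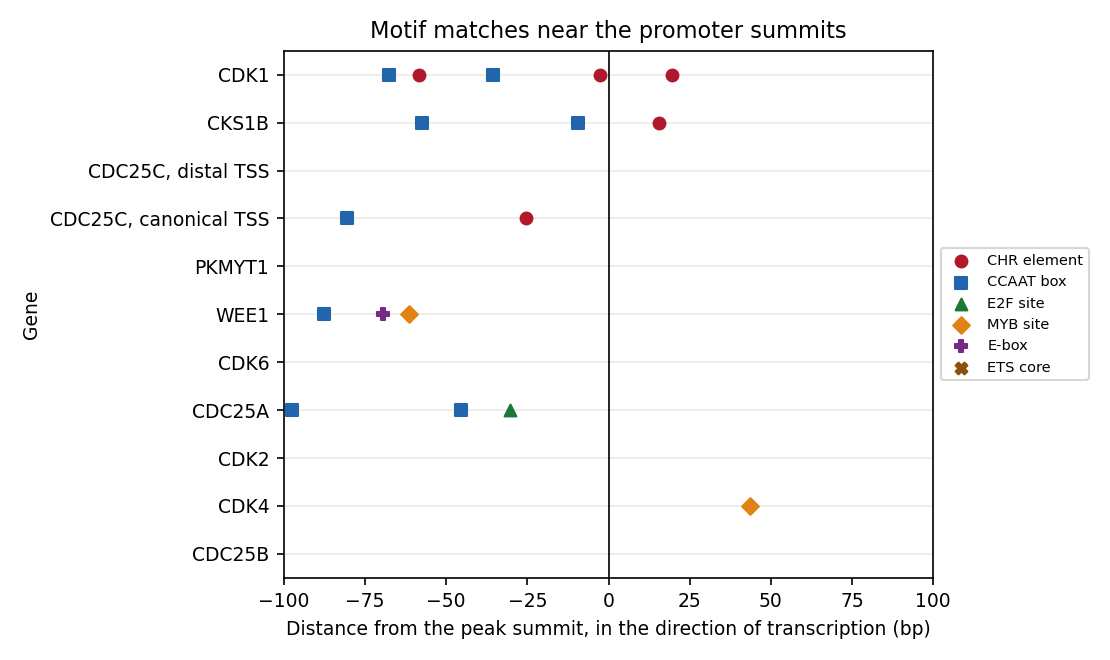
Positions of motif matches (symbols) in bp from the promoter peak summit, in the direction of transcription (x axis), for the best promoter peak of each gene and, for CDC25C, also the peak at the canonical TSS (rows, ordered by fold enrichment); GC boxes are not drawn. CHR elements lie within 100 bp of the summits of CDK1, CKS1B and CDC25C at its canonical TSS, each with CCAAT boxes upstream of a CHR element.

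Some of the genes were covered by peaks along their length. The 10 genes had 39 promoter peaks in all, 25 of them with a fold enrichment under 5. WEE1 had 9, PKMYT1 had 6, and CDK1, CDK6 and CDC25B had 5 each, beside a median of 1 over bound protein-coding genes, while CDK2, CDC25A and CKS1B had 1 each. The genes had 5 to 20 annotated TSSs, each of which adds a window in which a peak can count, beside a median of 5 over protein-coding genes. Peaks covered 70.4% of the CDK1 gene, 66.9% of PKMYT1 and 43.7% of WEE1, more than in 97.1%, 96.8% and 94.2% of bound protein-coding genes, which had a median of 3.07%. In PKMYT1 the widest of them was the 5670 bp peak of fold enrichment 10.6, and the 4 others beside the best ran from 3.37 to 4.23. In WEE1 the 8 further promoter peaks had fold enrichments of 2.82 to 4.44, and the strongest peak at no promoter (9611811 to 9613232) had 6.97. The 12 peaks in CDK1 that were at no promoter of it had fold enrichments of 2.45 to 5.36, and the 4 further promoter peaks 2.39 to 3.35.

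The surroundings of the genes differed in the number of peaks. Counting the gene and 50 kb either side, CDK1 had 19 peaks at no promoter of any gene, 12 of them in the gene, which is 16.3 per 100 kb where the genome had 1.45. CKS1B followed with 11, all outside the gene (10.5 per 100 kb), and CDC25B with 8 (6.70 per 100 kb). CDK2 had none. CDK6 had 13 over its much longer region (3.92 per 100 kb). Its strongest peak at no promoter was at 92263384 to 92263970 in intron 5, 202271 bp into the gene, with a fold enrichment of 8.18 (interval 6.13 to 10.7), near that of its best promoter peak. Neighbouring promoters outdid some of the genes. Within 50 kb of PKMYT1 a peak at the promoters of CLDN6, HCFC1R1, THOC6 and TNFRSF12A reached 23.1, and within 50 kb of CKS1B one at FLAD1 reached 22.

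**Figure D4:**
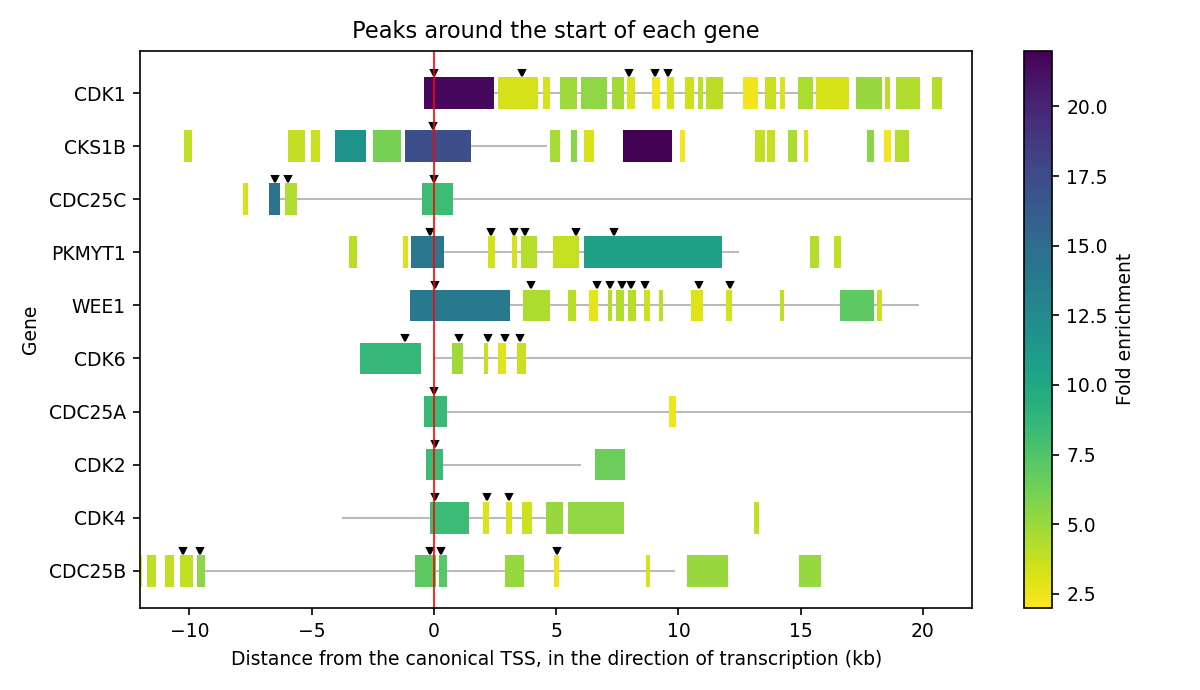
Peaks (boxes, colour for fold enrichment) by distance from the canonical TSS in kb, in the direction of transcription (x axis), for the 10 genes (rows, ordered by best promoter peak); grey lines are the genes, cut at the right edge where longer, and black triangles mark promoter peaks. Peaks run along CDK1, PKMYT1 and WEE1, the CDK6 peak lies upstream of the TSS, and CDC25C has its stronger peak 6502 bp upstream.

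By the phase in which the mRNA is known to peak, the 4 late genes (CDK1, CKS1B, CDC25C and CDC25B) held both the 3 highest values and the lowest, with a median fold enrichment of 15.8. The 4 early genes (PKMYT1, WEE1, CDC25A and CDK2) had a median of 11.2, and the 2 genes of little periodicity, CDK4 and CDK6, a median of 8.53. With the canonical TSS alone the late median was 12.8. CDC25C then stood at 8.31, below all 4 early genes, and the late genes no longer held the 3 highest values. These classes were written from general knowledge, with earlier results of these data known, and their difference was not tested.

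Lists of other genes that act on the same kinases were described in the same way. Over all protein-coding genes, 59.4% had a promoter peak, and the median fold enrichment of the best was 8.67. Of 10 cyclin genes, 7 had a promoter peak, with a median fold enrichment of 13. The highest were CCND1 (34.5), the D-type partner of CDK4 and CDK6, and CCNA2 (22.7), the partner of CDK2 and CDK1. The CCND1 peak ran from 69451051 to 69472476 on chromosome 11, where the median best peak was 865 bp wide. Where its summit lay was not described. The lowest were CCNE2 (4.72) and CCND3 (7.19). CCNA1, CCNB3 and CCNE1 had none, and the peak nearest to a CCNE1 TSS was 95229 bp away. Of 8 CDK inhibitor genes, 5 had a promoter peak, with a median of 10.1, from CDKN2C (23.4) and CDKN2D (13.2) to CDKN3 (9.93) and CDKN1A (7.75). CDKN1C, CDKN2A and CDKN2B had none, and the peaks nearest to a TSS of each were 6955, 156601 and 192405 bp away. Whether these regions are present and readable in A673 cells was not tested, so a missing peak need not mean missing binding. Of 15 further regulators, 14 had a promoter peak, with a median of 12.4. PLK1, a mitotic kinase that acts on CDC25C, PKMYT1 and WEE1, had the highest at 29.6, and CKS2, the paralog of CKS1B, followed at 21.3 (interval 17.3 to 26.0), overlapping with CKS1B. CDK7, a kinase that activates CDKs, was lowest at 7.12, CDC37 was at 10.1, and WEE2, a germline relative of WEE1, had none. All values in these lists count any TSS. With the canonical TSS alone, CDKN2C fell to 9.45, CCND3 to 5.62 and CDC37 to 6.51, the last below CDK7. The median of the 10 genes (11.3) lay between those of the inhibitors and of the other regulators, and no list was tested against another.

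**Figure D5:**
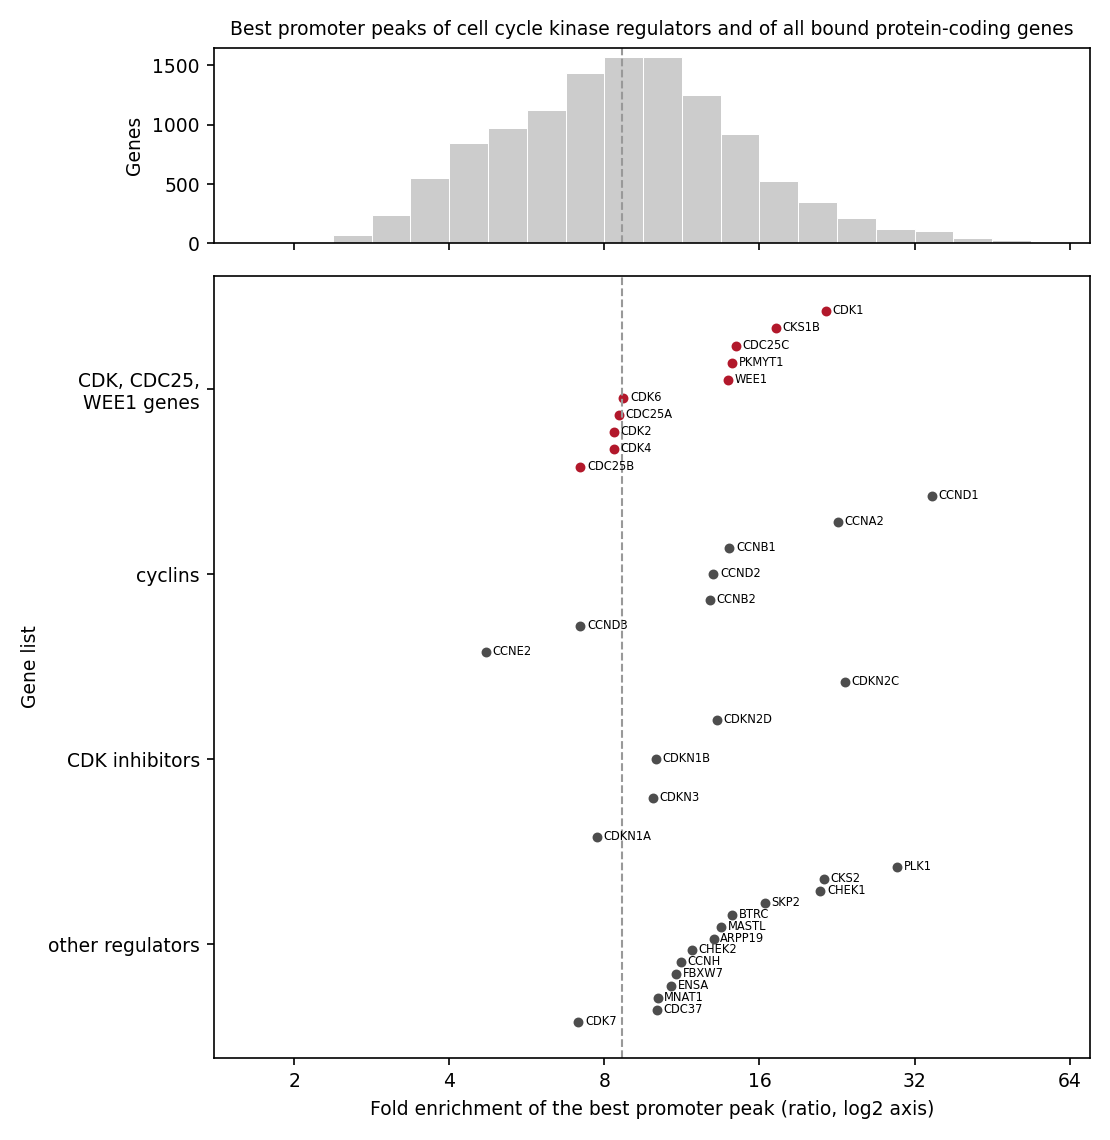
Fold enrichment of the best promoter peak (x axis, log2 scale) of the 10 genes (red) and of cyclin, CDK inhibitor and other regulator genes with a promoter peak (grey), below a histogram of the number of protein-coding genes by the same value; the dashed line is the median of all bound protein-coding genes, 8.67. CDK1 and CKS1B lie among the upper values, and CDC25B lies with CDK7 and CCND3 near 7.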

How the data were processed

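The study performed 1 MYBL2 ChIP and 1 input in A673 cells. Per the labels and the methods, the authors aligned reads to hg19 with Bowtie2 (2.1.10), kept those with a mapping quality of at least 20 and called narrow peaks with MACS2 (2.0.10) against the input at a q threshold of 0.05. What the cleaning of the list removed is not given in the sources used here. The deposited list gives 66954 peaks with the authors' fold enrichment (a linear ratio), −log10 p-value, −log10 q-value, score (from the q-value) and summit offset.

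Positions (from 1) were matched to GRCh37, which shares the hg19 coordinates, and to GENCODE release 44 lifted to it. Whole-number pileups and backgrounds were solved from fold enrichment and p (largest misfit 3.49e-05 in −log10 p), after a check on simulated data. The background floor of 3.45 fragments corresponds to about 56800000 ChIP reads spread over a genome of 2700000000 bases, if the smallest peak width (164 bp) is the fragment length. At genes on the floor, the background is thus this even spread and not the local input. Copies of 1 molecule made by PCR cannot be recognised, so Poisson intervals hold for counting error of the pileup alone. Motifs were searched on both strands with Python 3.11.15 and pysam 0.24.0. All 10 genes were named, of other lists the 2 highest, the 2 lowest and those without a peak, plus genes whose TSS windows the best peaks touched. CENPB, PAQR4, CCND2 and genes at neighbouring promoters were named after their values were seen. The members, lists and timing classes were chosen with earlier results of these data known. The promoter sequences of WEE1 and PKMYT1 are not reported here.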

Additional observations from a re-analysis of the deposited data

How the results depend on the processing

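All 10 genes kept a promoter peak with windows of 500 or 2000 bp, with the canonical TSS only, with the summit required in the window, with a fold enrichment of at least 5 and with a −log10 q of at least 10. The 2000 bp window could not lose a gene. Neither threshold could remove a gene or change its best fold enrichment, since the weakest best peak had 7.19 and a −log10 q of 16.7. The median fold enrichment of 11.3 moved beyond the median counting interval of the 10 genes (8.73 to 14.8) only with the canonical TSS, to 8.62, since CDC25C then fell from 14.4 to 8.31. CDK6 fell from 8.71 to 4.87 with 500 bp or with the summit in the window, and no other gene left its interval. Motif counts rose with a window of 200 bp, to 4 genes instead of 2 with a CHR element and 3 instead of 1 with an E2F site, and both counts were unchanged with 50 bp. Of the values for single genes, 73 of 90 kept their level, including the fold enrichments under both thresholds, which could not move. The other 17 moved, among them peak counts around genes when 100 kb were counted and ranks when lncRNA genes were included. No paired analysis was possible because ChIP and input have 1 library each, and leaving out a replicate was not possible either. Counting error limits the order, since the weakest best peak rests on 31 fragments.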
